A study of Mus musculus with 8 samples.

Results

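A set of 10 imprinted genes was followed through RNAseq of FACS-sorted GFP+ (mG+) cells: the long noncoding RNAs *Meg3*, *Kcnq1ot1*, *Snhg14* and *H19*, and the protein-coding genes *Igf2*, *Dlk1*, *Peg3*, *Plagl1*, *Ndn* and *Mest*. They are 10 of 54532 genes in the count table and were taken by name. They were chosen by their measured values, namely their levels by tissue and diet and their KO to WT ratios in these 8 libraries. Their own values are therefore a description, and no test result is given for them. The libraries form 4 pairs of 1 KO and 1 WT library, all from female mice aged 8 months. KO mice were Tie2e-cre; TERTfl/fl; mTmG and WT mice were Tie2e-cre; TERT+/+; mTmG, so both genotypes carried the Cre transgene and the dual reporter. The pairs were subcutaneous adipose tissue (SAT) of mice on a high-fat diet (HFD) from month 1 to month 8, and SAT, visceral adipose tissue (VAT) and gastrocnemius muscle of mice on chow. With 1 library per genotype in a pair, there is no replicate within a group, and each interval given for a pair covers counting error only. Whether mice were pooled in a library was not given in the sources used here.

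Tie2-driven Cre recombines in endothelial cells and also in part of the blood lineage, and the sorted cells held both. All 12 endothelial markers (*Pecam1*, *Cdh5*, *Kdr* and others) had counts in every library, summing to between 396 and 2623 CPM (counts in units of 1000000 after TMM scaling of the library). Neutrophil markers summed to 26612 and 30402 CPM in the muscle libraries, and macrophage markers to 9268 and 9544 CPM in the VAT libraries. In the SAT libraries endothelial markers summed to between 396 and 706 CPM. There B cell markers summed to between 2151 and 4190 CPM, T cell markers to between 1280 and 3178, and stromal markers to between 959 and 3697. The lists hold different genes, so these sums are not shares of cells. In such bulk libraries fewer cells of a type and less RNA per cell cannot be told apart. *Tert*, the targeted gene, had 114 (WT) and 0 (KO) counts in the HFD pair, and on chow 70 and 11 in SAT, 3 and 9 in VAT, and 24 and 7 in muscle. The VAT counts therefore did not check the genotype labels of that pair. The WT library of SAT on chow stood apart in its RNA. Loci of the annotation classes TEC and sense intronic took 0.0516% of its counts against 0.236% to 0.58% in the other 7 libraries. Ribosomal protein genes took 13.3% against 2.83% to 6.85%, and the nuclear RNA *Malat1* had 292 CPM against 2149 to 5836. The WT library of the HFD pair also stood apart, in lincRNAs, which took 10.8% of its counts against 0.411% to 1.74% in the other 7. Results that rest on the WT library of SAT on chow are given beside these values and, where possible, without it.

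An imprinted gene is transcribed mainly from the chromosome of 1 parent, because an imprinting control region was methylated in the egg or the sperm and kept that mark in the embryo. Imprinted genes lie in clusters in which a long noncoding RNA is often expressed from the chromosome on which the protein-coding genes are silent. Many act in fetal growth and fall in expression after birth, while some stay on in stem cells of muscle and in the stroma of adipose tissue. Counts per gene do not tell the parental chromosomes apart, so the values below are total levels.

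Several of the genes also host microRNAs, which for some of these loci are among the better known products, and the mature sequences from RefSeq (GRCm38.p6) are shown to identify them, with the seed (bases 2 to 8) in capitals. *H19* (chromosome 7, 142575529 to 142578143, minus strand) holds miR-675. *Igf2* (chromosome 7, 142650766 to 142666816, minus strand) holds miR-483, *Mest* (chromosome 6, 30723547 to 30748465, plus strand) miR-335, and *Meg3* (chromosome 12, 109541001 to 109571726, plus strand) miR-770.
miR-675-5p: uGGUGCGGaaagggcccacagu
miR-675-3p: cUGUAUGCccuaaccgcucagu
miR-483-5p: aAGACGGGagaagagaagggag
miR-483-3p: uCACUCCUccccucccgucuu
miR-335-5p: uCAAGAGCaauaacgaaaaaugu
miR-335-3p: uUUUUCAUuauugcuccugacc
miR-770-5p: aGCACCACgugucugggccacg
miR-770-3p: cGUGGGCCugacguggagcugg
No seed was shared between them. The mRNA libraries were not made to capture mature microRNAs, and the rows of the hairpins held 2 counts for *Mir335* over all 8 libraries and 0 for *Mir675*, *Mir483* and *Mir770*, so only the host transcripts are described.

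All 10 genes had a ratio of KO to WT above 1, or *Igf2* a bound above 1, in the pair from SAT on chow, so the DNA upstream of their start sites was read. RefSeq gave windows for 9 of the 10 genes, 15 in all, and none for *H19*. Each window was searched over 250 bases before the start, on both strands, for TGCCGC, the core of the site bound by ZFP57 when its CpG is methylated (GCGGCA on the other strand). Windows of *Meg3*, *Mest* and *Plagl1* held it, 4 of 15 windows, beside 8.68% of all 32851 windows. Of the windows that held it, 1 is shown for each gene, on the gene's own strand, with the matches in capitals: *Meg3* at chr12:109540746-109540995, *Mest* at chr6:30737800-30738049 and *Plagl1* at chr10:13090582-13090831.
Meg3: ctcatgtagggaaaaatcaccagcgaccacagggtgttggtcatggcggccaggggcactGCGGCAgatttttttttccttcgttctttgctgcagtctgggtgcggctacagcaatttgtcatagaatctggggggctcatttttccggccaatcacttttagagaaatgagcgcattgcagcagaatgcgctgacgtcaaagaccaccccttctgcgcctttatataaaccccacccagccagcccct
Mest: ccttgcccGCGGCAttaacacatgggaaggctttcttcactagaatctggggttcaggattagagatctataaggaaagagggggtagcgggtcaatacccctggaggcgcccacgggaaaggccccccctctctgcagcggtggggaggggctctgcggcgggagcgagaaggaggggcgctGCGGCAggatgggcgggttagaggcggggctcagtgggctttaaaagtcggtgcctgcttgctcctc
Plagl1: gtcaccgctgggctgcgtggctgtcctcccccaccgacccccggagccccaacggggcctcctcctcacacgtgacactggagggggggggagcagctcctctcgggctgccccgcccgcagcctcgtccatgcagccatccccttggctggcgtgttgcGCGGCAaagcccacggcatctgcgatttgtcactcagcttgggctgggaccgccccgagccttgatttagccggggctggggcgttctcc
*Mest* gave 2 of the 4, which start 3 bases apart and hold the same matches. These windows held 10, 14 and 19 CG dinucleotides, but were picked for a motif that itself holds a CG. Over all 15 member windows the median was 8 CG, and 40% held 10 or more, beside a median of 6 and 37.8% over all windows. A match is a description of the letters and not a binding site. Methylation was not measured.

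Levels were low for most of the genes, which sets how much each comparison can show. Per kilobase of the gene length in the table, the median level over the 8 libraries was highest for *Plagl1*, at 1.38 CPM per kb, followed by *Mest* (1.31), *H19* (1.07), *Peg3* (1.04), *Ndn* (1.03) and *Meg3* (0.945). *Kcnq1ot1* had 0.372, *Snhg14* 0.181, *Igf2* 0.128 and *Dlk1* 0.0551 CPM per kb. By comparison *Igf2r*, an imprinted gene for the receptor that clears IGF2, had 14.1 CPM per kb. The ranges over libraries of neighbours in this order overlapped. *Igf2* and *Dlk1* were at 0 counts in 3 libraries each. A count of 3, which stands in for a count of 0 wherever a bound ("at least") is given, is worth between 0.181 and 0.451 CPM in these libraries. Such a bound is not a confidence limit, and the counting interval can reach lower.

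**Figure D1:**
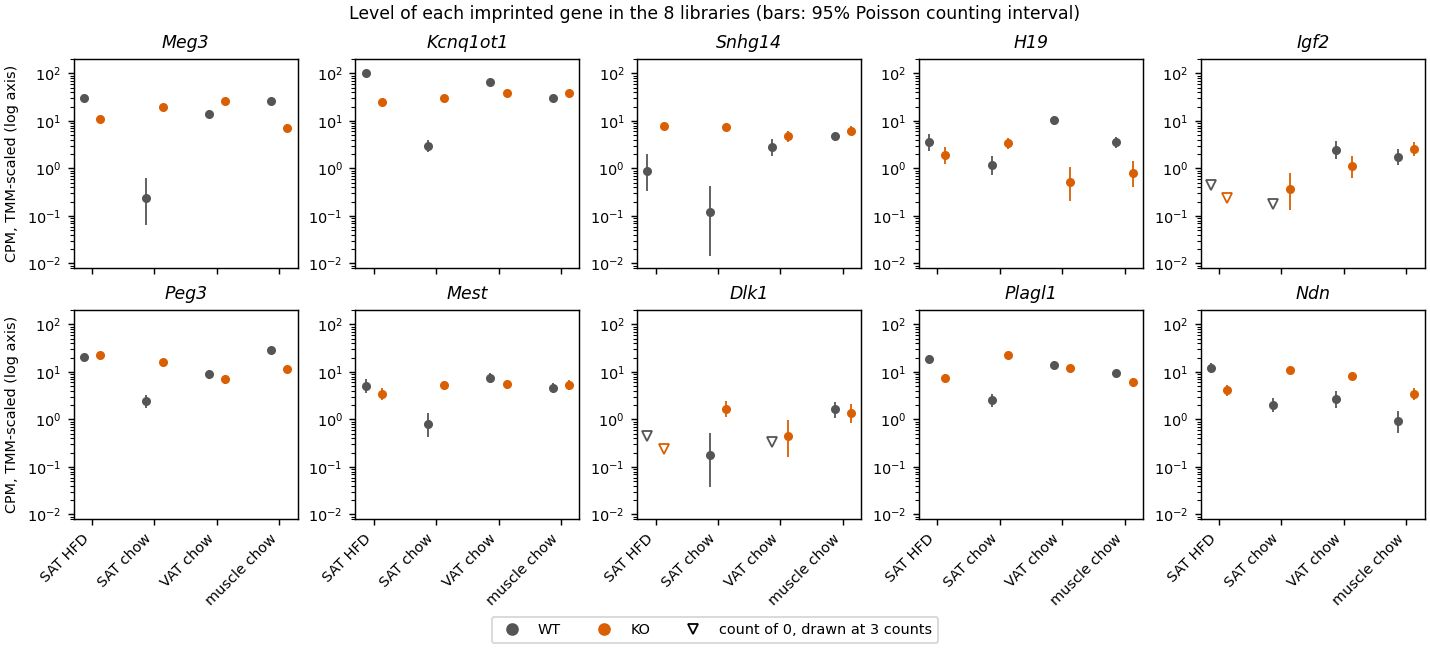
Level of each of the 10 genes (CPM after TMM scaling, log axis) in WT (grey) and KO (orange) libraries of the 4 pairs, with 95% Poisson intervals and open triangles at 3 counts where the count was 0. *Meg3*, *Kcnq1ot1*, *Snhg14*, *Peg3*, *Mest* and *Plagl1* were lowest in the WT library of SAT on chow.

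*Meg3* is the long noncoding RNA made from the maternal chromosome of the *Dlk1*-*Dio3* cluster. Its counts (WT, then KO) were 198 and 137 in the HFD pair, and on chow 4 and 333 in SAT, 126 and 356 in VAT, and 434 and 99 in muscle. In CPM these were 29.8 and 10.8, 0.242 and 20.1, 14.1 and 26.2, and 26.3 and 7.17. The KO library was thus the lower of the pair under HFD and in muscle, and the higher in both chow-fed fat depots. The log2 ratio of KO to WT was −1.45 (95% counting interval −1.78 to −1.14) under HFD and −1.87 (−2.20 to −1.56) for muscle. It was 0.89 (0.60 to 1.20) for VAT and 6.17 (5.0 to 8.26) for SAT on chow. The last value rests on 4 counts in the WT library, and over the other 7 libraries *Meg3* ranged 4.15-fold, from 7.17 to 29.8 CPM.

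*Rian*, a maternally expressed noncoding RNA downstream of *Meg3* on the same strand, took the same direction in every pair. Its counts were 193 and 41, 11 and 288, 82 and 276, and 217 and 60 in the same order, with log2 ratios of −3.15, 4.63, 1.14 and −1.59. The correlation of the 2 RNAs on the log2 scale was r = 0.93 over 8 libraries, and r = 0.91 over the 7 without the WT library of SAT on chow. For *Meg3* and *Malat1* the same values were r = 0.90 and r = 0.13. Libraries are shared by both genes in each correlation, and the values are descriptions. *Dlk1*, paternally expressed in the same cluster, encodes a membrane ligand of the Notch family type that marks preadipocytes and holds back their differentiation. It had 0 counts in both libraries of SAT on HFD, 3 and 28 in the SAT chow pair, 0 and 6 in VAT, and 27 and 19 in muscle. Only the SAT chow pair gave an interval beyond 0, at 2.98 (1.52 to 5.58), since in muscle the ratio was −0.24 (−1.18 to 0.65) and in VAT the KO library was at least 1.32-fold higher against 3 counts in WT, with a counting interval that included 0.

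*Kcnq1ot1* is the paternally expressed antisense transcript that silences the *Cdkn1c* domain in cis. It had 678 and 315 counts in SAT on HFD, 50 and 506 in the SAT chow pair, 599 and 537 in VAT, and 502 and 536 in muscle (WT and KO). The WT library of SAT on HFD was the highest, at 102 CPM, and the WT library of SAT on chow the lowest, at 3.02 CPM. Log2 ratios were −2.03 (−2.23 to −1.84), 3.32 (2.91 to 3.78), −0.76 (−0.93 to −0.59) and 0.35 (0.17 to 0.53). *Cdkn1c*, the growth-arrest gene of that domain, had log2 ratios of −2.01, 0.92, 0.11 and −0.35, the same sign as *Kcnq1ot1* in SAT on both diets. *Kcnq1ot1* lies antisense to *Kcnq1*, which had 495 counts over all libraries against 3723, and use of strand in the counting was not given in the sources used here.

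*Snhg14*, the host transcript of small nucleolar RNAs in the Prader-Willi region, was the 1 member higher in KO in all 4 pairs. Its counts were 6 and 100 in SAT on HFD, 2 and 123 in the SAT chow pair, 25 and 64 in VAT, and 78 and 86 in muscle. Ratios on the log2 scale were 3.08 (1.96 to 4.61), 5.55 (4.05 to 9.0), 0.74 (0.06 to 1.48) and 0.40 (−0.06 to 0.86), so the interval for muscle included 0. *Ube3a*, which this RNA silences on the paternal chromosome in neurons, overlaps it on the opposite strand with 7849 counts in total against 484. Its own log2 ratios were −0.25, 0.71, −0.06 and −0.13. *Ndn*, of the same region, encodes necdin, a MAGE protein that restrains growth and adipogenesis. It had 81 and 52, 34 and 182, 24 and 113, and 15 and 48 counts, with log2 ratios of −1.56 (−2.10 to −1.05), 2.39 (1.88 to 2.99), 1.62 (0.99 to 2.33) and 1.89 (1.08 to 2.88). It was thus higher in the KO library of all 3 chow pairs and lower in that of HFD.

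*H19*, the maternally expressed noncoding RNA of the *Igf2* locus, is abundant in fetal muscle and returns when muscle regenerates. It had 24 and 24 counts in SAT on HFD, 20 and 56 in the SAT chow pair, 93 and 7 in VAT, and 59 and 11 in muscle. The library labelled KO in VAT was 20.2-fold lower than WT, a log2 ratio of −4.24 (−5.69 to −3.24), and in muscle KO was 4.49-fold lower, at −2.11 (−3.24 to −1.22). In SAT the log2 ratio was −0.91 (−1.81 to −0.05) on HFD and 1.45 (0.72 to 2.30) on chow.

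Muscle markers moved with *H19* in the VAT and muscle pairs. *Acta1*, skeletal actin, had 813 counts in WT and 16 in KO in VAT, and 185 and 52 in muscle. *Pax7*, which marks satellite cells, had 18 and 0 in VAT and 283 and 16 in muscle, and *Myod1* had 11 and 0, and 49 and 7. Of 8 satellite and myogenic markers, 8 were lower in KO in both pairs, with 6 and 1 at 0 in KO, and the list summed to 38.9 and 29.5 CPM in VAT and to 68.4 and 19.6 CPM in muscle. Of 8 muscle fibre markers, 8 were lower in KO in both pairs, with 2 and 0 at 0 in KO, and they summed to 150 and 10.5 CPM in VAT and to 35.7 and 17.5 CPM in muscle. In SAT on chow, where *H19* was higher in KO, the lists did not fall together: satellite and myogenic markers summed to 9.37 and 9.64 CPM (2 higher and 4 lower in KO), and muscle fibre markers to 37.2 and 22.0 CPM (4 and 4). In the HFD pair, only 1 of 8 satellite and myogenic markers had counts, and the fibre markers summed to 51.6 and 11.8 CPM (0 higher and 6 lower). The part of muscle cells in the *H19* values was not tested.

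*Igf2*, the paternally expressed fetal growth factor, shares its enhancers with *H19*. It had 0 counts in both libraries of SAT on HFD, 0 and 6 in the SAT chow pair, 22 and 15 in VAT, and 29 and 36 in muscle. For muscle the log2 ratio of 0.56 (−0.18 to 1.33) lay apart from that of *H19*, and for VAT it was −1.13 (−2.21 to −0.14). In SAT on chow KO was at least 1.99-fold higher, against 3 counts in WT, with a counting interval that began lower, at log2 0.23. The difference between *H19* and *Igf2* was not tested.

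**Figure D2:**
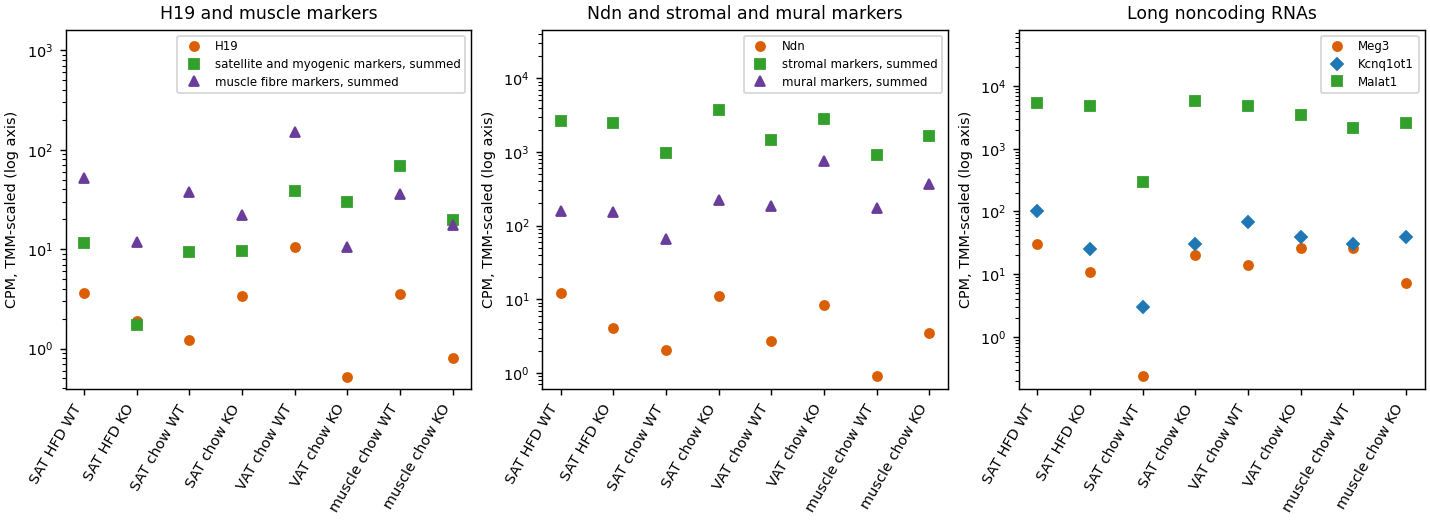
CPM after TMM scaling (log axes) in each library for *H19* beside summed satellite and muscle fibre markers, for *Ndn* beside summed stromal and mural markers, and for *Meg3* and *Kcnq1ot1* beside *Malat1*. In VAT, *H19* and muscle fibre markers were both lower in KO, and the stromal sum and *Ndn* were higher in KO in all 3 chow pairs.

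*Peg3*, a zinc finger gene expressed in stem cells of adult muscle and other tissues, had 134 and 283 counts in SAT on HFD, 40 and 266 in the SAT chow pair, 79 and 95 in VAT, and 479 and 160 in muscle. The muscle KO library was 2.50-fold lower, at a log2 ratio of −1.32 (−1.59 to −1.06), beside the satellite markers above. SAT on chow gave 2.71 (2.25 to 3.25), and the other 2 intervals included 0. *Zim1*, the maternally expressed neighbour of *Peg3*, had 173 counts in WT and 28 in KO in muscle, a log2 ratio of −2.35 (−3.00 to −1.79), and in SAT on HFD it had 0 and 52, at least 9.12-fold higher in KO.

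*Plagl1*, a zinc finger regulator of other imprinted genes, had 124 and 93, 42 and 368, 127 and 162, and 158 and 84 counts. Its log2 ratios were −1.34 (−1.74 to −0.94), 3.11 (2.66 to 3.62), −0.25 (−0.60 to 0.09) and −0.65 (−1.05 to −0.26). *Mest*, an enzyme of the alpha/beta hydrolase type linked to fat cell size, was more even apart from 1 library. It had 34 and 44, 13 and 87, 68 and 74, and 77 and 73 counts, and without the WT library of SAT on chow its levels lay between 3.48 and 7.61 CPM, a 2.19-fold range, the narrowest of the 8 genes with counts in all 7 libraries. Over all 8 libraries it ranged 9.69-fold and *Plagl1* 8.73-fold. The log2 ratio was 2.68 (1.89 to 3.70) in SAT on chow, and in the other 3 pairs the interval included 0. *Mest* overlaps *Copg2* on the opposite strand, which had 4822 counts against 470.

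**Figure D3:**
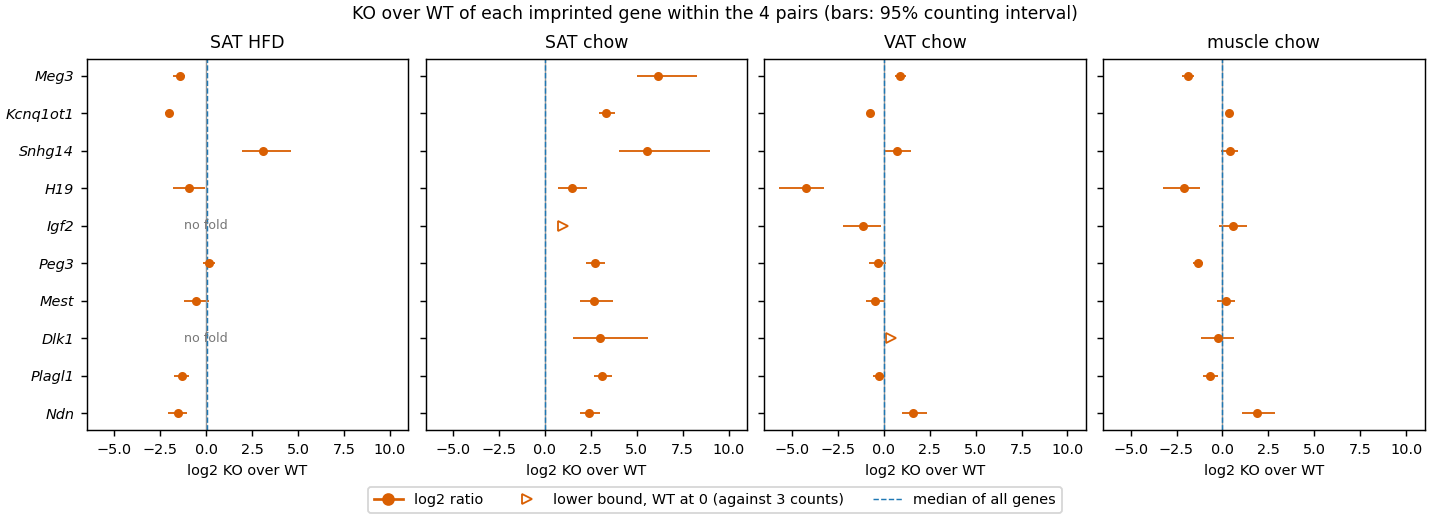
Log2 ratio of KO to WT for each gene in the 4 pairs, with 95% counting intervals, lower bounds as open triangles where WT was at 0, and dashed lines at the median of all genes. All values for SAT on chow were above 0, while in the other pairs the genes pointed both ways.

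Counted over the members that averaged 10 or more counts in a pair, 9 of 9 were 2-fold or more higher in KO in SAT on chow, where 26% of all genes were (19.2% were lower). *Igf2* did not pass this filter, and its interval was also above 0. *Meg3*, *Snhg14* and *Dlk1*, with 4, 2 and 3 counts in WT, passed it through the KO library alone, so they could only be 2-fold or more higher. In SAT on HFD, 1 of 8 was 2-fold higher (17.9% of all genes) and 4 of 8 lower (16.7%): *Snhg14*, and *Meg3*, *Kcnq1ot1*, *Plagl1* and *Ndn*. The WT side of this pair is the library with 10.8% of its counts in lincRNAs, against 1.74% in KO, and the part of this in these ratios was not tested. In VAT *Ndn* was 2-fold higher (1 of 9, beside 8.26%) and *H19* and *Igf2* were lower (2 of 9, beside 6.83%). In muscle *Ndn* was higher (1 of 10, beside 8.73%) and *Meg3*, *H19* and *Peg3* lower (3 of 10, beside 6.15%). Since the members were selected with these ratios known, nothing is read from the counts. Median log2 ratios were −1.13, 2.98, −0.34 and −0.03 for the 4 pairs (the last is 0.13 with library totals), beside 0.04, −0.00, 0.01 and −0.01 over all genes. With library totals in place of TMM, 69.5% of the genes beyond 2-fold were higher in KO in SAT on chow, against 57.5%, and 69.5% against 58.7% in muscle.

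The libraries of the SAT chow pair also differed in nuclear RNAs and in cell type markers. *Malat1* and *Neat1*, nuclear RNAs that are not imprinted, had log2 ratios of 4.32 and 2.35 there, and −0.15 and −0.88, −0.47 and −0.64, and 0.25 and 0.44 in SAT on HFD, VAT and muscle. Summed stromal markers were higher in KO in that pair by log2 1.95 (959 and 3697 CPM, higher for 11 of 12 markers), and mural markers by log2 1.78 (65.4 and 225 CPM, 7 of 8). Blood cell markers were lower in KO, by log2 −1.79 for neutrophils (8 of 8 lower), −1.31 for T cells (7 of 7), −0.73 for B cells (5 of 6) and −0.71 for macrophages (7 of 8). In a step chosen after the data were seen, the median change of genes of like length was taken off. The ratios for *Meg3*, *Kcnq1ot1*, *Peg3* and *Plagl1* were then 4.74, 1.90, 1.85 and 2.61, and 9 of 9 members were 2-fold or more higher. Of all genes beyond 2-fold, 64.7% were higher in KO after this step, against 57.5% before. Nothing is read from the members' count, since they were selected with their ratios known. *Meg3*, *Snhg14* and *Dlk1* also passed the count minimum through the KO library alone. The part of RNA class and of stromal, mural and blood cells in these ratios was not tested.

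The genes whose levels were most like those of *Ndn* were mainly stromal. The 5 genes most like it on the log2 scale, among 12367 others averaging 50 or more counts, were the pseudogene *Gm10033* (r = 0.98) and the fibroblast and matrix genes *Dcn* (0.96), *Rarres2* (0.94), *Mmp2* (0.93) and *Igfbp6* (0.92). Without the WT library of SAT on chow these were 0.97, 0.96, 0.96, 0.93 and 0.91. With the other members of the same count minimum, *Ndn* had r from 0.08 (*Peg3*) to 0.58 (*Plagl1*) over 8 libraries. Stromal markers summed to 1433 and 2790 CPM in VAT and to 900 and 1666 CPM in muscle (WT and KO), higher for 12 of 12 markers in both, and none was at 0. Mural markers went from 183 to 749 CPM in VAT and from 175 to 372 CPM in muscle, higher for 8 of 8 in both. In SAT on HFD, where *Ndn* was lower in KO, the sums were 2595 and 2491 CPM (stromal) and 160 and 152 CPM (mural). Their part in the *Ndn* values was not tested.

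For the other members averaging 50 or more counts, the same rule named *Rec114* for *Meg3* (r = 0.997), *Gm26772* and the TEC locus *Gm38346* for *Kcnq1ot1* (0.99 and 0.98), *Gpr161* for *Snhg14* (0.99), *Rest*, a repressor of neuronal genes, for *Peg3* (0.99), *Map1b* and, in 4th place, the imprinted *Peg10* for *Mest* (0.99 and 0.99), and *Gm17971* for *Plagl1* (0.98). Over the 7 libraries without the WT library of SAT on chow, *Meg3* and *Rec114* had r = 0.98, *Peg3* and *Rest* 0.97, and *Mest* and *Peg10* 0.88. Of the 5 genes nearest to *Kcnq1ot1*, 3 were TEC loci. All these correlations share libraries and their RNA classes, and *H19*, *Igf2* and *Dlk1* fell below the count minimum.

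Between tissues and diets, 2 libraries (WT and KO) stood on each side. By mean log2 CPM the order was VAT, SAT on HFD, muscle, SAT on chow for *Meg3* and *Kcnq1ot1*, and by mean CPM SAT on HFD stood first for both (20.3 against 20.2 CPM in VAT, and 63.5 against 53.3), with overlap between the libraries of neighbours. Both SAT HFD libraries were above both SAT chow libraries for *Peg3* (1 of 10 members, beside 8.41% of all genes) and below them for *Dlk1* (1 of 10, beside 22.7%). VAT lay above SAT on chow without overlap for *Kcnq1ot1*, *Igf2* and *Mest* (3 of 10, beside 27.8%) and below it for 0 of 10 (28.1%). Muscle lay above SAT on chow for *Igf2* (1 of 10, beside 21.2%) and below it for 0 of 10 (22.5%). Against VAT, muscle was above for *Snhg14*, *Peg3* and *Dlk1* (3 of 10, beside 31.7%) and below for *Kcnq1ot1*, *Mest* and *Plagl1* (3 of 10, beside 30%). These shares were near or under those of all genes. *Igf2* was clearest by tissue: 0 to 6 counts in the 4 SAT libraries and 15 to 36 in the 4 libraries of VAT and muscle, on a scale from 0 to 2.61 CPM.

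A list of 39 other imprinted genes, 20 paternally and 19 maternally expressed, was compiled from general knowledge. In SAT on chow, 16 of the 27 that averaged 10 or more counts were 2-fold or more higher in KO, beside 26% of all genes. Only 1 was lower, beside 19.2%, and the median log2 ratio was 1.47. Of the paternally expressed genes, 15 of 15 had positive ratios, 12 of them 2-fold or more, with a median of 2.32, and of the maternally expressed 9 of 12 were positive, with a median of 0.82. *Peg10*, a retrotransposon-derived gene needed in placenta, had 7 and 226 counts, and *Impact*, a regulator of translation, 289 and 1913. *Nap1l5*, *Dio3*, *Zdbf2* and *Rtl1* had 0 counts in WT and 45, 25, 24 and 22 in KO, at least 15.0-, 8.31-, 7.97- and 7.31-fold higher. These genes passed the minimum mean of 10 counts through the KO library alone, so their ratios could only be positive and beyond 2-fold. *Peg10*, *Nnat* (5 and 84 counts), *Zim1* (5 and 27) and *Asb4* (5 and 15) also passed only through the KO library, so their ratios could only be positive. All these genes are included in the 16 and the medians above. The paternally expressed ones are also in the 15 and the 12, and *Zim1* and *Asb4* in the 9 of 12. Nothing is therefore read from these counts. *Slc22a18*, *Osbpl5* and *Kcnq1*, which are maternally expressed, had negative ratios, of −1.12, −0.86 and −0.46, and *Zrsr1*, *Peg13* and *Gnas* differed little, at 0.07, 0.22 and 0.08. The difference between paternally and maternally expressed genes was not tested.

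In the other pairs the list lay near the middle of all genes. Its medians were −0.02 in SAT on HFD (0.07 with library totals), −0.08 in VAT and −0.19 in muscle. Of 23 genes in SAT on HFD, 5 were 2-fold or more higher and 5 lower, beside 17.9% and 16.7% of all genes. In VAT these were 4 and 1 of 28, beside 8.26% and 6.83%, and in muscle 1 and 3 of 26, beside 8.73% and 6.15%. In SAT on HFD a library at 0 gave only a bound for *Zim1*, named above, *Zdbf2* (0 and 67 counts), *Nap1l5* (25 and 0), *Slc22a2* (0 and 32), *Slc22a18* (0 and 23) and *Snrpn* (0 and 21). The 5 of these with 0 counts in WT are all of the 5 counted as higher. They passed the count minimum through the KO library alone, so their ratios could only be positive and beyond 2-fold. *Nap1l5*, among the 5 lower, passed through the WT library alone. Nothing is read from these counts. *Rian*, with counts in both, was 8.95-fold lower in KO. In VAT *Slc38a4*, an amino acid transporter, had 22 and 3 counts (log2 −3.27, −5.86 to −1.74) and *Ascl2*, a trophoblast factor, 5 and 27. In muscle *Slc22a18* had 9 and 32, and *Calcr*, the calcitonin receptor that is also among the satellite cell markers, had 41 and 11, a log2 ratio of −1.60. Of these, *Slc38a4*, *Ascl2* and *Slc22a18* passed the count minimum only through the library with more counts.

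**Figure D4:**
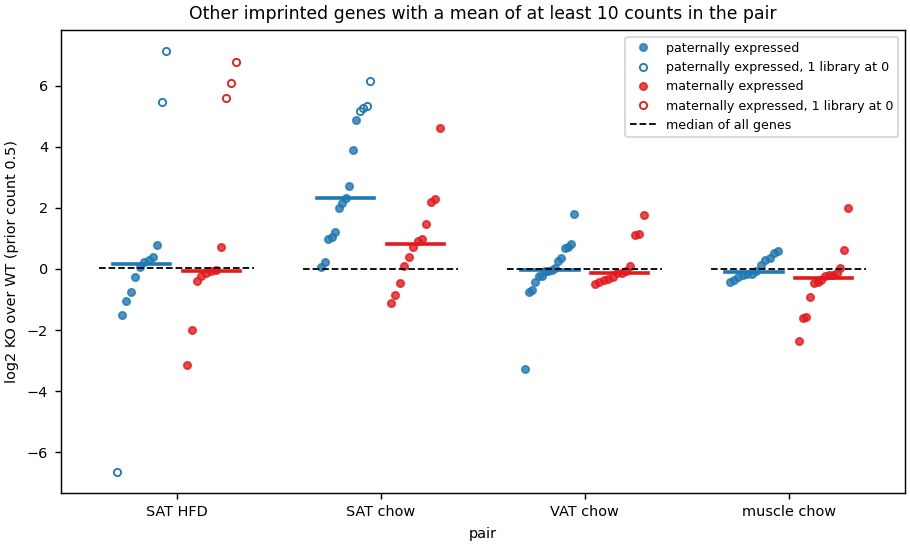
Log2 ratio of KO to WT of the other imprinted genes in the 4 pairs, paternally (blue) and maternally (red) expressed, with bars at their medians, dashed lines at the median of all genes and open points where 1 library was at 0, whose place depends on the prior count. In SAT on chow the paternally expressed genes lay above 0, with a median of 2.32. Some of them passed the count minimum through the KO library alone.

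Tests were made with edgeR's quasi-likelihood test over 16971 genes and Benjamini-Hochberg adjustment, and single results are given only for genes other than the members. The members were among the 16971, and so in the fit, the adjustment and the counts over all genes. For KO over WT across the 4 pairs, 1 gene was called (0.00589%), and of 27 other imprinted genes tested 0 were called, 0 had an unadjusted p under 0.05, and DESeq2 called 0. *Impact* had a log2 change of 0.40 (SE 0.52) and *Igf2r* of 0.07 (SE 0.27). For HFD over chow in SAT, edgeR called 0 of all genes (0%), with 1354 at an unadjusted p under 0.05, and DESeq2 called 242. Of the 27, 0 were called by edgeR or DESeq2, while 2 had an unadjusted p under 0.05: *Kcnq1*, lower on HFD (0 and 4 counts against 40 and 29), and *Mcts2*, higher (log2 1.78, SE 0.64, adjusted p = 0.588).

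For VAT over SAT on chow 5.05% of all genes were called and 0 of the 27 by edgeR, with 6 at an unadjusted p under 0.05. DESeq2 called 1, *Kcnq1*, a potassium channel gene (log2 2.98, adjusted p = 0.0102), which had a log2 change of 2.84 (SE 1.04, adjusted p = 0.18) with edgeR. *Grb10*, an adaptor that dampens insulin and IGF signaling, was higher by log2 1.57 (SE 0.65, adjusted p = 0.226) and *Impact* by 1.72 (SE 0.72, adjusted p = 0.235), and *Osbpl5* was lower, at −1.06 (SE 0.37, adjusted p = 0.153). For muscle over SAT on chow (1.26% of all genes called) and muscle over VAT (1.93%), 0 of the 27 were called by edgeR and 1 in each by DESeq2, with 4 and 1 at an unadjusted p under 0.05. The gene DESeq2 called in both was *Rasgrf1*, a guanine nucleotide exchange factor with 0 and 3 counts in muscle against 38 and 193 in SAT on chow and 27 and 68 in VAT. Its adjusted p with edgeR was 0.176 and 0.183. Without the KO library of SAT on chow, edgeR called 1 of the 27 for HFD over chow (*Impact*), 4 for VAT over SAT (*Impact*, *Osbpl5*, *Grb10*, *Peg10*) and 3 for muscle over SAT (*Impact*, *Grb10*, *Peg10*), in a fit where the remaining SAT chow library, the WT one that stood apart, is assumed to vary like the others.

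The receptors of the IGF pathway had counts in every library. *Igf1r* and *Insr*, through which IGF2 signals, were higher in KO in SAT on chow, at log2 2.22 (2.02 to 2.42) and 1.45 (1.30 to 1.61), and stayed within −0.21 to 0.48 in the other 3 pairs. *Igf2r* had 0.97 (0.88 to 1.06) in SAT on chow. The list of *Igf1*, IGF receptors and IGF2 mRNA binding proteins held 6 genes averaging 10 or more counts there. Of these, 4 were 2-fold or more higher and 0 lower, beside 26% and 19.2% of all genes, and their median was 1.33. *Igf2bp1* was at 0 in all libraries.

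Factors that keep imprints through cell division were described in the same way. Of 9 listed, 8 averaged 10 or more counts in SAT on chow. Of these, 2 were 2-fold or more higher and 1 lower, beside 26% and 19.2% of all genes. Their median log2 ratio was −0.17. A link between these factors and the members' ratios was not tested. *Smchd1*, a chromatin protein that silences some imprinted clusters, was higher at 1.34 (1.27 to 1.41), and *Uhrf1*, which brings DNMT1 to replicating DNA, lower at −1.37 (−1.56 to −1.18). *Zfp57*, which binds the motif shown above, had 0 and 79 counts in SAT on HFD, 10 and 39 in the SAT chow pair, 92 and 47 in VAT, and 38 and 70 in muscle (WT and KO). In the HFD pair 7 of 8 factors had a positive ratio, with a list median of 0.26, in VAT 4 of 9 (−0.03) and in muscle 6 of 8 (0.12).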

How the data were processed

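RNA of FACS-sorted GFP+ cells was sequenced in 8 libraries, 1 for each genotype in 4 pairs of tissue and diet. The authors deposited 1 table of whole-number counts per gene for all libraries. Per the submitters' processing notes reads were aligned with HISAT2 2.0.5 to GRCm38, and the counting program and its use of strand were not given in the sources used here. All 8 value columns were matched to samples. Totals were 6214269 to 18855772 counts.

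The 10 members, gene lists and tests were chosen with earlier results of these data known. CPM used TMM factors of genes averaging 10 or more counts. Within a pair, the log2 ratio used a prior count of 0.5 scaled to the library, and its 95% Clopper-Pearson interval covers counting error only, since reads without molecular identifiers are not independent molecules. A library at 0 was set to 3 counts to give a bound, which is not a confidence limit, and 1 to 3 counts gave a ratio with its interval. The design table had planned a bound there as well. Between groups, edgeR 4.0.16 quasi-likelihood tests (R 4.3.3, robust) with tissue and diet as a block, and Benjamini-Hochberg adjustment at 0.05, were used on 16971 genes. DESeq2 1.42.0, other scalings, a prior count of 5, a minimum of 1 count and leaving out each library were alternatives. The fit had 3 residual degrees of freedom, and p-values measure only the spread between these libraries. The test was run on counts simulated without tissue or diet effects, so that check does not cover differences like those between these libraries.

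Named genes were the members, the other imprinted genes of their clusters, up to 6 with the largest ratio in each pair, any with an adjusted p under 0.05, the 5 genes most correlated with each member averaging 50 or more counts, the factors that keep imprints, the IGF genes, *Malat1* and *Neat1*. From this rule the text gives examples. *Mcts2*, *Grb10*, *Rasgrf1*, *Impact*, *Zrsr1*, *Peg13* and *Gnas*, and the cell type markers named singly, were picked from the lists after their values were seen. Sequences came from RefSeq tables of GRCm38.p6.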

Additional observations from a re-analysis of the deposited data

Results flagged for a closer look

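Among the 10 genes, 6 had a ratio of KO to WT, computed from counts above 0, whose counting interval lay above 0 in at least 1 pair and below 0 in another. The span from the lowest to the highest log2 ratio over the 4 pairs was 8.04 for *Meg3*, 5.35 for *Kcnq1ot1*, 5.69 for *H19*, 4.03 for *Peg3*, 4.44 for *Plagl1* and 3.95 for *Ndn*. Each side of each pair was 1 library, so the difference between pairs was not tested. The highest ratio was that of SAT on chow for all 6 genes, and it rests on the WT library in which *Meg3*, *Kcnq1ot1*, *Peg3* and *Plagl1* were lowest.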

How the results depend on the processing

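No single member's called ratio changed sign. Medians near 0 did: the members' in muscle, −0.03, became 0.01 with DESeq2 size factors and 0.13 with library totals, and that of the other imprinted genes in SAT on HFD, −0.02, became 0.07 with library totals and, as a mean over genes, 0.75. In VAT the list's median was −0.08 and its mean 0.03. Of the members' ratios of KO to WT under other scalings, prior counts and the like-length correction, 138 moved by less than their counting interval and 6 moved, 5 of them under the like-length correction, which was chosen after the data were seen. Calls over all genes depended on the method. With genes of at least 1 count kept, 41 were called for KO over WT, 289 for HFD over chow, 2116 for VAT over SAT, 971 for muscle over SAT and 1166 for muscle over VAT, and DESeq2 called 19, 242, 2232, 1004 and 1227. Without the block for tissue and diet 0 were called for KO over WT (edgeR). Leaving out 1 library at a time gave 0 to 2, 0 to 308 (308 without the KO library of SAT on chow), 93 to 3449, 37 to 1761 and 41 to 75. Of the other imprinted genes, the 1-count minimum called 2 for VAT over SAT (*Impact*, *Grb10*), 1 for muscle over SAT (*Rasgrf1*) and 2 for muscle over VAT (*Impact*, *Rasgrf1*), and DESeq2 1, 1 and 1. Leaving out 1 library gave 0 to 1 for HFD over chow (*Impact*), 0 to 4 for VAT over SAT (*Impact*, *Osbpl5*, *Grb10*, *Peg10*) and 0 to 3 for muscle over SAT, the highest without the KO library of SAT on chow, and 0 for KO over WT and muscle over VAT. The cause was not tested. With library totals the median of all genes shifted by 0.23 (log2) in SAT on chow and 0.17 in muscle, and by 0.11 with DESeq2 size factors in SAT on chow. In VAT 1 higher and 1 lower member passed 2-fold with a prior count of 5, and 3 and 2 with the like-length correction. KO over WT was paired by tissue and diet throughout, and the labels give no replicate numbers. Depth limits *Igf2* and *Dlk1*, at 0 counts in 3 libraries each.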
